A study of Mus musculus with 15 samples.

Results

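The 10 alpha and beta tubulin isotypes described here are Tuba1a, Tuba1b, Tuba1c, Tuba3a, Tuba3b, Tuba4a, Tubb2a, Tubb2b, Tubb3 and Tubb5. They were chosen by gene symbol from the 34372 genes of the deposited table, with their levels in these libraries already known, so those levels are described, with no p-value, and counts of isotypes past a threshold are a description that supports nothing. All 10 were found in the table. Transcript levels are in TPM, which corrects for gene length and sums to 1000000 in every library, so a level is a share of the library's transcripts.

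The 15 mouse libraries came from polyadenylated RNA of embryonic germ cells (EGC), which are pluripotent lines grown out from primordial germ cells, and of embryonic stem cells (ESC), to compare both kinds of pluripotent line. The header of the table gives 2 E11.5 XX EGC libraries (EGC 7 and EGC 9), 1 E11.5 XO EGC library (EGC 8), 3 E12.5 XY EGC libraries (EGC 1 to 3), 3 E11.5 XY EGC libraries (EGC 4 to 6), 3 XX ESC libraries (ESC 1 to 3) and 3 XY ESC libraries (ESC 4 to 6), where E11.5 and E12.5 are days of embryonic development and no genetic modification is named. All were taken at passage 6 after growth in 2i-LIF, then on mouse embryonic fibroblast (MEF) feeders with serum and LIF, and a sort for the surface antigen SSEA1. The sources used here do not say which libraries of a label are separate lines or repeats of a line. P-values therefore measure only the spread between these libraries, and neither karyotype nor stage can be told apart from line. Stage here means the day in the label, since all libraries were taken at passage 6.

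Microtubules are built from dimers of 1 alpha and 1 beta tubulin, and mammals carry several genes for each, called isotypes, which differ mostly in their tails. Most cells use a few broadly expressed isotypes, neurons add others, and the Tuba3 genes are known from the testis. Embryonic stem cells divide quickly and need tubulin for the mitotic spindle, and cells tune tubulin transcript levels through the decay of tubulin messages when free dimers accumulate.

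In GENCODE M21 (GRCm38) the alpha genes Tuba1b (chr15:98931425-98934565, minus strand), Tuba1a (chr15:98949837-98953703, minus strand) and Tuba1c (chr15:99029891-99038110, plus strand) lie in 1 cluster. Tuba3a (chr6:125278274-125286042, minus strand) and Tuba3b (chr6:145615757-145621479, plus strand) lie far apart on chromosome 6, and Tuba4a (chr1:75214228-75219865, minus strand) on chromosome 1. Of the beta genes, Tubb2a (chr13:34074274-34078007, minus strand) and Tubb2b (chr13:34126748-34130466, minus strand) lie on chromosome 13, Tubb3 (chr8:123411424-123422015, plus strand) on chromosome 8 and Tubb5 (chr17:35833921-35838306, minus strand) on chromosome 17. None lies on the X or Y chromosome, and a level is that of the whole gene.

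The libraries had high levels of the 6 pluripotency markers, whose summed level was 7116 to 14618 TPM, with Pou5f1 at 1024 to 1714 TPM. The 10 neural markers summed to 9.72 to 36.1 TPM, and Dcx, which defines young neurons, was at 0 to 0.0117 TPM. The 10 fibroblast markers, which the feeders express, summed to 126 to 328 TPM, of which Fn1 alone made up 108 to 310.4 TPM. EGC 4 stood apart on some of the others, with 0.936 TPM of Lum, 6.48 TPM of Dcn and 15.1 TPM of Col3a1, against at most 0.0438, 0.146 and 2.14 TPM in the other 14 libraries. Col1a1, Col1a2 and Postn were also highest in EGC 4. It did not stand apart on Thy1 (1.69 TPM, against 3.10 TPM in EGC 9) or Pdgfrb (1.53 TPM, against 3.03 TPM in EGC 1). Pdgfra was at 0.465 TPM in EGC 4, close to 0.453 TPM in ESC 1. Leaving out EGC 4 moved no isotype difference by more than 1 SD, which says little. EGC 4 is 1 of 3 libraries of its label, and differences between other labels do not depend on it. The part of fibroblasts in its isotype levels was not tested. The 6 markers of later germ cells summed to 142 to 286 TPM. ESC 3 stood apart on chromosome 13, where Tubb2a and Tubb2b lie. The median over 503 genes of that chromosome, less the median over the other autosomes, was 0.48 log2 units in ESC 3 and -0.11 to 0.04 in the other 14 libraries.

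The differences below are in log2(TPM + 1) with their standard error (SE), from a limma fit with 1 mean per label. A gene passed where its p, with Benjamini-Hochberg adjustment over 13879 genes, was under 0.05. Several comparisons share libraries, E11.5 XY EGC and XY ESC above all, so their values are set side by side and not correlated.

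Tuba3a and Tuba3b, the testis alpha tubulins, showed wide contrasts by karyotype in both cell types, and the region before each gene's start is printed because the copies are nearly identical in their coding sequence (97.0% of bases) while these regions are not. The 250 bases before the RefSeq start are given 5′ to 3′ from RefSeq GRCm38.p6, with CG dinucleotides, the sites at which DNA is methylated, in capitals.
Tuba3a, chr6:125286082-125286331, minus strand: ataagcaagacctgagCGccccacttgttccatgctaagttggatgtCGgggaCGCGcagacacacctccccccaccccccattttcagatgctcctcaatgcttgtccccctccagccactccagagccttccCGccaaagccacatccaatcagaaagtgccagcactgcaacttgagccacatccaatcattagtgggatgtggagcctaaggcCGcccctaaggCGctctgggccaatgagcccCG
Tuba3b, chr6:145615713-145615962, plus strand: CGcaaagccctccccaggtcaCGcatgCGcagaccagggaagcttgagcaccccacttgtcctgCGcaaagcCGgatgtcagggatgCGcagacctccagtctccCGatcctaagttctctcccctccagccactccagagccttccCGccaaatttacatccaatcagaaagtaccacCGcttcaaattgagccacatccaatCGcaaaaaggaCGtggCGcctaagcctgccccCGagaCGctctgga

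The Tuba3a region holds 8 CG dinucleotides and the Tuba3b region 14, against a median of 6 over 32851 RefSeq promoters of the same length. The motif CCAAT, counted on both strands, occurs 3 times in the Tuba3a region and 2 times in the Tuba3b region. At least 3 copies occur in 2.79% of all promoters and at least 2 in 10.1%. Aligned to each other, the regions match at 63.6% of 283 columns, and the longest stretch that both hold unbroken is 33 bases. The Tuba3b start in GENCODE M21 lies inside its window, since that annotation starts the gene earlier than RefSeq. The 9 isotypes with a matched promoter have 4 to 35 CG dinucleotides.

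Tuba3a was high in the XX libraries of both cell types. Its level was 170.1, 132 and 152 TPM in XX ESC, against 30.6, 27.96 and 33.1 TPM in XY ESC. E11.5 EGC had 96.9 and 91.6 TPM in XX, against 22.9, 23.1 and 14.4 TPM in XY. The lowest XX library was above every XY library, and the mean was 4.95 times as high in XX as in XY in ESC and 4.68 times in E11.5 EGC. The log2 differences, XX minus XY, were 2.27 ± 0.17 in ESC and 2.20 ± 0.19 in EGC.

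The XO library, with 1 X chromosome, had 18.6 TPM of Tuba3a, which lies among the E11.5 XY EGC values and not among the XX values. E12.5 XY EGC had 38.3, 25.3 and 30.8 TPM, all above E11.5 XY EGC (a log2 difference of 0.63 ± 0.17) and overlapping XY ESC (0.02 ± 0.17). XX EGC lay below XX ESC by 0.67 ± 0.19 on the log2 scale, without overlap. In order of the mean, XX ESC came first, then E11.5 XX EGC, E12.5 XY EGC, XY ESC, E11.5 XY EGC and the XO library. Neighbours overlapped between E12.5 XY EGC and XY ESC, and between E11.5 XY EGC and XO.

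Tuba3b reached 1 TPM in the 5 XX libraries and in none of the other 10, so it passed the filter on low values only through the labels where it is high. Its level was 10.1, 10.05 and 15.1 TPM in XX ESC, against 0.763, 0.449 and 0.675 TPM in XY ESC. Among E11.5 EGC, XX had 4.66 and 3.83 TPM, against 0.228, 0.66 and 0.176 TPM in XY. The groups did not overlap in either cell type. The log2 difference was 2.95 ± 0.17 in ESC and 1.97 ± 0.18 in EGC with 1 TPM added before the log, and 4.02 and 3.40 with 0.1 TPM added.

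XX EGC had less Tuba3b than XX ESC, with a log2 difference of -1.26 ± 0.18. E12.5 XY EGC had 0.735, 0.669 and 0.7602 TPM and the XO library 0.1698 TPM. The XO value was below all 14 other libraries, the nearest being an E11.5 XY library at 0.176 TPM. How reads shared by Tuba3a and Tuba3b were counted is not given in the sources used here, so the level of the rarer copy is uncertain. Another transcript, 4930417O13Rik, overlaps Tuba3a on the opposite strand, and the library kit did not mark strand.

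Tubb3, the beta tubulin commonly used as a marker of neurons, had its widest contrast in EGC. At E11.5 the EGC had 42.2 and 39.9 TPM in XX, against 5.38, 3.49 and 5.14 TPM in XY, and the mean was 8.79 times as high in XX. In ESC it was at 30.9, 23.02 and 34.97 TPM in XX, against 11.2, 11.1 and 12.7 TPM in XY, or 2.54 times. The groups did not overlap in either cell type, and the log2 differences were 2.91 ± 0.22 in EGC and 1.26 ± 0.19 in ESC. XO EGC had 12.7 TPM, between the E11.5 XX and XY values. By mean, E11.5 XX EGC and XX ESC came first, then XO EGC, E12.5 XY EGC and XY ESC, and E11.5 XY EGC last. The E12.5 XY EGC range held the XO value and the XY ESC values, and XO (12.743 TPM) lay just above the highest XY ESC library (12.734 TPM).

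Among XY libraries Tubb3 differed between the E11.5 and E12.5 labels. At E12.5 the XY EGC had 15.99, 11.9 and 8.75 TPM, above every E11.5 XY EGC library by 1.20 ± 0.19 on the log2 scale. E11.5 XY EGC was below XY ESC by 1.17 ± 0.19, while E12.5 XY EGC overlapped XY ESC (0.03 ± 0.19). The summed level of the neural markers did not follow Tubb3, but single markers went both ways. They summed to 11.9 and 13.7 TPM in E11.5 XX EGC, 29.9 TPM in XO, 19.5 to 22.7 TPM in E12.5 XY EGC, 31.1 to 36.1 TPM in E11.5 XY EGC, 9.72 to 11.53 TPM in XX ESC and 24.5 to 26.98 TPM in XY ESC. The labels with the most Tubb3 thus had the lowest sums. Neurod1 weighed heavily in them, at 16.3 to 20.1 TPM in E11.5 XY EGC, against 3.87 to 4.50 TPM in E12.5 XY EGC. Elavl3 ran with Tubb3 among XY labels, at 3.36 to 3.77 TPM in E11.5 XY EGC and 6.50 to 8.58 TPM in E12.5 XY EGC. It was at 8.76 to 9.24 TPM in XY ESC, but at 2.98 and 3.03 TPM in E11.5 XX EGC. The part of neural cells in the Tubb3 level was not tested. A predicted gene, Gm20388, overlaps Tubb3 on the same strand, so some of their reads cannot be told apart.

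Tubb2a, a beta tubulin abundant in brain, was also higher in XX. It was at 101, 91.3 and 119 TPM in XX ESC, against 24.9, 24.3 and 24.5 TPM in XY ESC. For E11.5 EGC the values were 73.3 and 70.5 TPM in XX, against 34.4, 36.1 and 27.7 TPM in XY. Neither pair overlapped, and the log2 differences were 2.03 ± 0.13 in ESC and 1.12 ± 0.15 in EGC.

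Unlike most isotypes, Tubb2a was not higher at the later stage. XY EGC of E12.5 had 32.8, 22.9 and 24.6 TPM, overlapping E11.5 XY EGC (-0.29 ± 0.13). E11.5 XY EGC was above XY ESC by 0.39 ± 0.13, which made Tubb2a the 1 isotype of 10 with a positive difference there. In XO there were 25.9 TPM, below the E11.5 XY libraries and inside the E12.5 XY range. XY ESC had the lowest mean of the 6 labels.

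Tubb2b, a beta tubulin of developing neurons, lies near Tubb2a on chromosome 13 and shares 96.5% of its coding bases. Its level was 401, 357 and 556 TPM in XX ESC, against 187, 190.4 and 216 TPM in XY ESC. The E11.5 EGC had 363 and 349.8 TPM in XX, against 189, 177 and 158 TPM in XY. The XX values were above the XY values in both cell types, with log2 differences of 1.12 ± 0.13 in ESC and 1.03 ± 0.15 in EGC. The highest value, 556 TPM, was in ESC 3, the library in which chromosome 13 as a whole was high. Without ESC 3 the difference in ESC was 0.94 ± 0.10 for Tubb2b and 1.93 ± 0.14 for Tubb2a. The XO library had 212 TPM and E12.5 XY EGC had 212, 204 and 180.3 TPM, and the 3 XY labels overlapped one another.

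Tuba1a, the main alpha tubulin of developing neurons, differed less. Its level was 279.7, 258 and 306 TPM in XX ESC, against 197, 230.1 and 210.1 TPM in XY ESC. XX EGC at E11.5 had 273 and 258 TPM, against 190.2, 165 and 179.8 TPM in XY EGC. The XX libraries were the higher ones in both cell types, by 0.40 ± 0.10 in ESC and 0.57 ± 0.12 in EGC on the log2 scale. E12.5 XY EGC, at 278, 240.4 and 204 TPM, overlapped both XX labels as well as XY ESC, and the XO library had 179 TPM, inside the E11.5 XY range. Tuba1a and Tuba1b both overlap the predicted gene Gm49450 on the same strand.

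**Figure D1:**
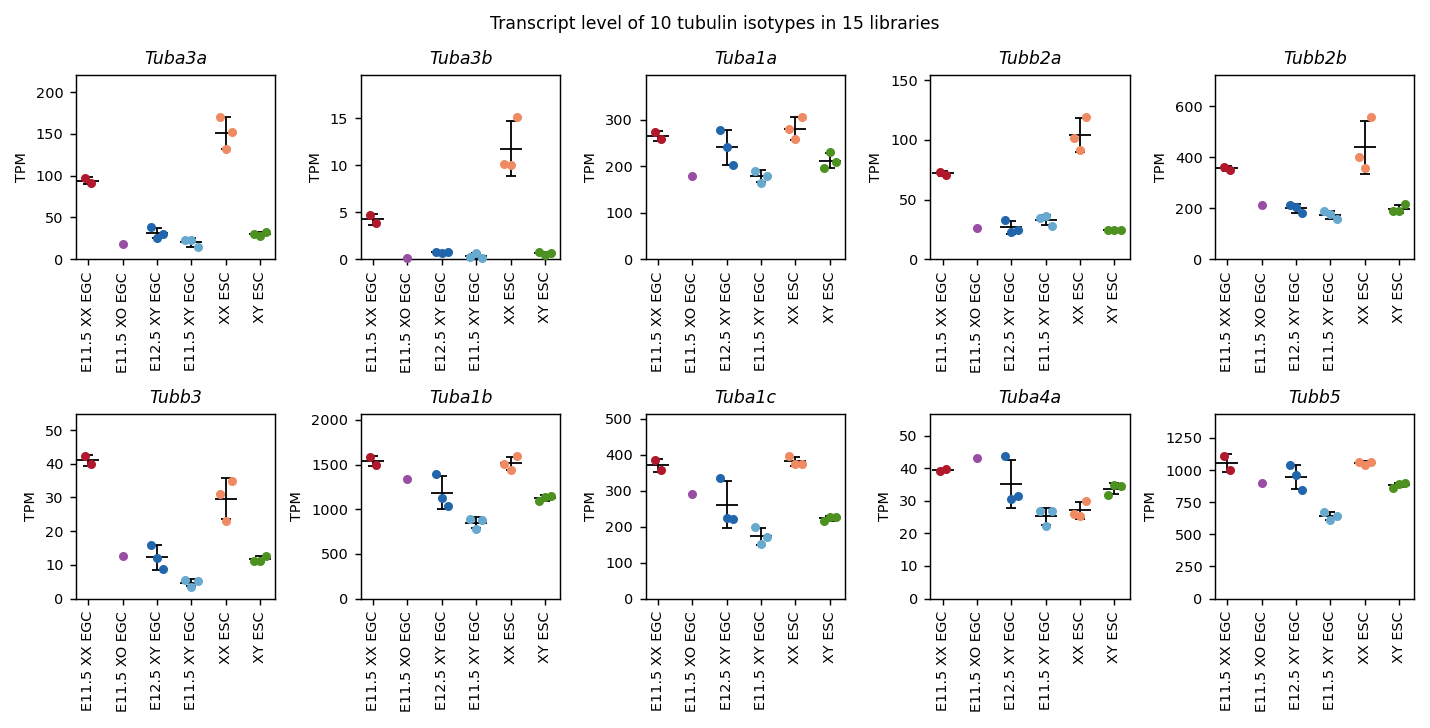
Level of each of the 10 isotypes in TPM (vertical axis, linear from 0, scaled per panel) by header label, with 1 point per library, a bar at the mean and error bars of 1 SD. The 5 XX libraries stand clear of the XY libraries of the same cell type for Tuba3a, Tuba3b, Tubb2a, Tubb2b, Tubb3, Tuba1b and Tuba1c. Tuba4a in XX ESC (25.2 to 30.1 TPM) lies below XY ESC (31.8 to 34.9 TPM).

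Tuba1b, the broadly expressed alpha tubulin, was the most abundant isotype in every library. It was at 1504, 1442 and 1591 TPM in XX ESC, against 1091, 1142 and 1149 TPM in XY ESC. In E11.5 EGC it was at 1583 and 1499.7 TPM in XX, against 895, 777 and 878 TPM in XY. The groups did not overlap, and the log2 difference was 0.42 ± 0.09 in ESC and 0.86 ± 0.10 in EGC. The XO library had 1343 TPM, above the E11.5 XY libraries and below the XX libraries. E12.5 XY EGC had 1396, 1121 and 1039.8 TPM, above E11.5 XY EGC by 0.47 ± 0.09 and overlapping XY ESC.

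Tubb5, the broadly expressed beta tubulin, had the highest level of the beta tubulins. It was at 1061, 1039 and 1062 TPM in XX ESC, against 864, 889 and 897 TPM in XY ESC, and at 1106 and 1003 TPM in E11.5 XX EGC, against 675, 612 and 645 TPM in E11.5 XY EGC. The XX libraries were the higher ones in both cell types, by 0.25 ± 0.07 in ESC and 0.71 ± 0.08 in EGC on the log2 scale. E12.5 XY EGC had 1036, 960.3 and 846 TPM, which was above E11.5 XY EGC by 0.55 ± 0.07 and overlapped XY ESC. In the XO library Tubb5 was at 901 TPM. The Tubb5 difference in ESC was 0.16 after scaling the libraries by quantiles or median ratios.

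Tuba1c, another broadly expressed alpha tubulin of the same chromosome 15 cluster, was at 395, 373 and 375 TPM in XX ESC, against 215, 226 and 227 TPM in XY ESC. Among the EGC of E11.5, Tuba1c had 384 and 358 TPM in XX, against 199, 151 and 170.0 TPM in XY. Neither pair overlapped, and the log2 differences were 0.77 ± 0.13 in ESC and 1.10 ± 0.15 in EGC. E12.5 XY EGC had 336, 224 and 222 TPM, and the XO library 290.1 TPM. Its stage difference of 0.57 ± 0.13 rested in part on EGC 1, the library at 336 TPM, and was 0.37 without it.

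Tuba4a, whose coding sequence ends without the tyrosine that closes most alpha tubulins, went opposite ways by karyotype. In E11.5 EGC it was at 39.2 and 39.7 TPM in XX, against 26.9, 22.2 and 26.8 TPM in XY. In ESC it was at 25.99, 25.2 and 30.1 TPM in XX, against 31.8, 34.9 and 34.6 TPM in XY. The XX libraries were thus above the XY libraries in EGC and below them in ESC, without overlap in either, with log2 differences of 0.63 ± 0.14 in EGC and -0.31 ± 0.12 in ESC. The XO library had the highest mean of any label at 43.2 TPM, and EGC 1 at E12.5 the highest single value at 43.7 TPM, beside 30.5 and 31.4 TPM in EGC 2 and EGC 3. Stk16 overlaps Tuba4a on the opposite strand, and their reads cannot be told apart without strand.

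**Figure D2:**
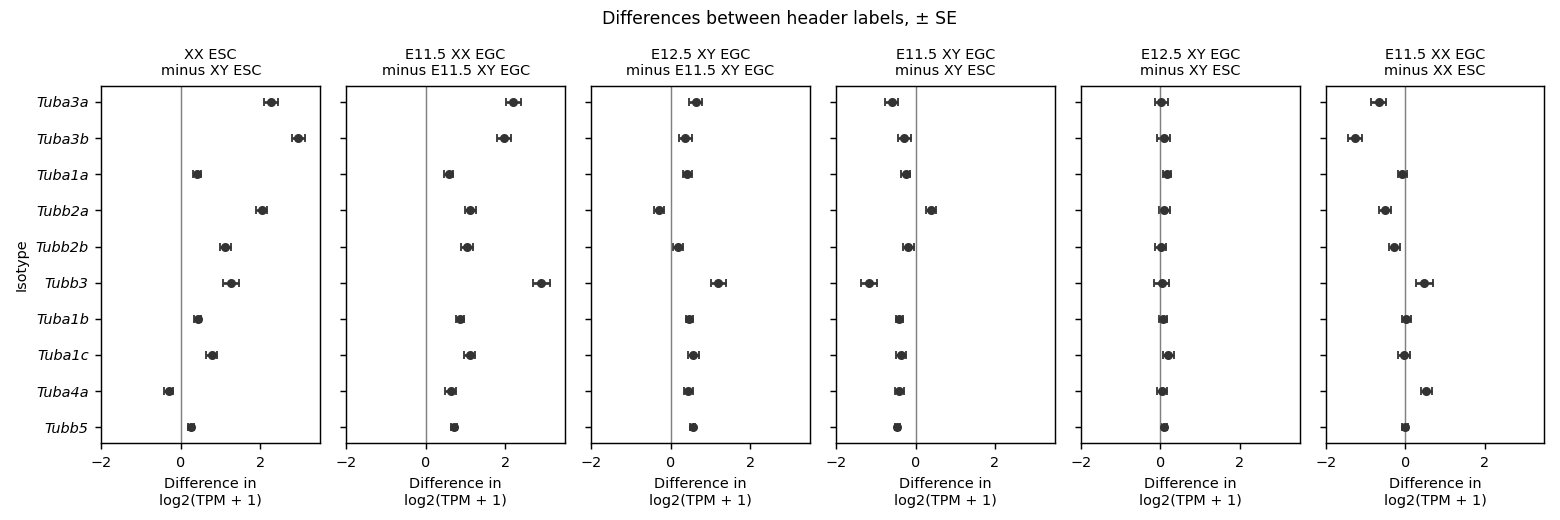
Difference in log2(TPM + 1) between 2 labels (horizontal axis, 1 panel per comparison, as titled) for the 10 isotypes (vertical axis), with error bars of 1 SE. The XX minus XY differences reach 2.95 for Tuba3b in ESC and 2.91 for Tubb3 in EGC, and the E12.5 XY EGC minus XY ESC differences all lie between 0.01 and 0.20.

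Set side by side, XX minus XY was positive for 9 of 10 isotypes in ESC and for 10 of 10 in E11.5 EGC. The median difference was 0.95 log2 units in ESC, beside 0.05 over all genes tested, and 1.06 in EGC, beside 0.02. In the limma fit 9 isotypes passed as higher in XX ESC, where 27.3% of all genes tested did, and 10 in XX EGC, where 26.2% did. The ESC count was 8 after quantile scaling. In ESC 1 isotype also passed as lower under both scalings and without EGC 1, 2 or 5 or ESC 3. In the fit reported 19.3% of genes were lower there. The ranges of the 10 isotypes did not overlap in either cell type, in 1 direction or the other, beside 54.0% of all genes in ESC and 70.5% in EGC. The isotypes were chosen with these values known, so nothing is read from the counts.

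Markers of other cells differed between the same labels. The fibroblast markers summed to 126 to 141 TPM in E11.5 XX EGC, against 213 to 230 TPM in E11.5 XY EGC, and to 209 to 244 TPM in XX ESC, against 244 to 266 TPM in XY ESC. The pluripotency markers summed to 12504 to 13854 TPM in E11.5 XX EGC, against 10064 to 11347 TPM in E11.5 XY EGC, and to 14033 to 14618 TPM in XX ESC, against 8572 to 8962 TPM in XY ESC. Dppa5a made up most of these sums, at 9516 and 10613 TPM in E11.5 XX EGC, against 7670 to 8867 TPM in XY. Among E11.5 EGC, Nanog and Zfp42 were also higher in XX, while Pou5f1 and Sox2 overlapped. Esrrb was lower in XX, at 173 and 164 TPM, against 180 to 186 TPM in XY. The fibroblast sums overlapped in ESC, and single markers went both ways. In E11.5 EGC, Fn1 was at 108 and 125 TPM in XX, against 166, 199.6 and 214 TPM in XY, whereas Thy1 was at 2.71 and 3.10 TPM in XX, against 1.69, 1.63 and 1.496 TPM in XY. The part of these cells in the tubulin differences was not tested.

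Between stages, E12.5 minus E11.5 in XY EGC was positive for 9 of 10 isotypes, with a median of 0.46 beside 0.10 over all genes tested. Here 7 isotypes passed as higher, where 26.3% of genes did, and the ranges of 8 did not overlap, beside 50.5% of genes. The higher count was 6 without EGC 1 and 8 with 0.1 TPM added. Under both scalings and without EGC 1 or EGC 6, 1 isotype passed as lower. In the fit reported 11.4% of genes were lower. The fibroblast markers summed to 310 to 328 TPM in E12.5 XY EGC and 213 to 230 TPM in E11.5 XY EGC. Of the 10, Fn1 (299 to 310.4 TPM at E12.5, against 166 to 214 TPM at E11.5) and Pdgfrb (2.59 to 3.03 TPM, against 1.45 to 1.53 TPM) were higher in every E12.5 library. Col3a1 (0.199 to 0.585 TPM at E12.5, against 1.21 to 15.1 TPM at E11.5), Thy1 and Postn were lower in every E12.5 library. The part of feeder cells in this difference was not tested. In bulk RNA, fewer cells of a type and less RNA per cell cannot be told apart.

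XY EGC of each stage were also set against XY ESC. E11.5 XY EGC minus XY ESC had a median of -0.39 over the isotypes, beside -0.01 over all genes. There 5 isotypes (Tuba1b, Tuba3a, Tuba4a, Tubb3 and Tubb5) passed as lower, where 13.4% of genes did, and Tubb2a as higher, where 12.2% did. The lower count was 3 with no filter or without ESC 6, and 4 to 6 without any other library. Tubb2a no longer passed with no filter or without EGC 4, 5, 7 or 9 or ESC 1, 4, 5 or 6. The ranges of 8 isotypes did not overlap, beside 44.3% of genes. E12.5 XY EGC minus XY ESC had a median of 0.07, 0 isotypes passed where 3.19% of genes were higher and 0.166% lower, and the ranges of all 10 overlapped, beside 27% of genes without overlap. Those 10 differences were all positive, but 4 were positive after median-ratio scaling and 6 after quantile scaling. The widest interval there, for Tubb3, ran from -0.39 to 0.45 (95% confidence).

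E11.5 XX EGC minus XX ESC was negative for Tuba3b (-1.26 ± 0.18), Tuba3a (-0.67 ± 0.19) and Tubb2a (-0.52 ± 0.15), and positive for Tuba4a (0.53 ± 0.14). These 4 passed, where 8.44% of genes were lower and 4.09% higher. With no filter, or without EGC 7, EGC 9 or ESC 1, the counts were 0 higher and 1 lower, without ESC 3 or ESC 4 they were 1 and 1, and without ESC 2 they were 0 and 3. The ranges of 5 isotypes did not overlap, these 4 and Tubb3, beside 46.0% of genes. The other 6 lay between -0.27 and 0.48, and the median over the 10 isotypes was -0.06, beside -0.05 over all genes.

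Summed over the 16 alpha and beta tubulin genes in the table, tubulin took the largest part of the transcripts in the XX libraries. It was 0.461%, 0.436% and 0.489% of all TPM in XX ESC, against 0.306%, 0.321% and 0.323% in XY ESC. In E11.5 EGC it was 0.463% and 0.428% in XX, against 0.258%, 0.226% and 0.243% in XY. The XO library had 0.353%, and E12.5 XY EGC had 0.396%, 0.329% and 0.299%. The XX libraries were above every other library, and E11.5 XY EGC below every other. The summed alpha and beta levels stayed close to each other, with an alpha to beta ratio of 0.999 to 1.13 over the 15 libraries. The 10 isotypes made up 85.6% to 87.1% of tubulin TPM, most of the rest being Tubb4b.

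The shares of the most abundant isotypes differed less than their levels. Tuba1b was 32.5% to 38.1% and Tubb5 21.7% to 29.2% of tubulin TPM in every library, so these isotypes together made up most of it throughout. Tubb5 took 22.9% ± 1.07 in XX ESC (SD, n = 3), against 27.9% ± 0.290 in XY ESC (n = 3), and 23.7% ± 0.326 in E11.5 XX EGC (n = 2), against 26.6% ± 0.464 in E11.5 XY EGC (n = 3). Its share was thus lower in XX while its level was higher.

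Tuba1c, Tuba3a, Tuba3b, Tubb2a, Tubb2b and Tubb3 had larger mean shares in XX in both cell types. Tuba1c took 8.56%, 8.56% and 7.67% of tubulin TPM in XX ESC, against 7.04%, 7.04% and 7.03% in XY ESC. In E11.5 EGC it took 8.29% and 8.36% in XX, against 7.70%, 6.70% and 6.99% in XY. Tuba3a took 3.27% ± 0.364 of tubulin TPM in XX ESC, against 0.965% ± 0.0828 in XY ESC, and 2.12% ± 0.0327 in E11.5 XX EGC, against 0.835% ± 0.219 in E11.5 XY EGC. Tubb2b took 9.43% ± 1.71 in XX ESC, against 6.24% ± 0.391 in XY ESC, and its mean over ESC 1 and ESC 2 alone was 8.45%. In E11.5 EGC its share was 8.003% ± 0.233 in XX, against 7.22% ± 0.692 in XY, where the highest XY library (7.85%) passed the lowest XX library (7.84%). Tubb3 took 0.922% ± 0.0154 in E11.5 XX EGC, against 0.191% ± 0.0322 in E11.5 XY EGC. Tubb2a took 2.24% ± 0.174 in XX ESC, against 0.776% ± 0.0323 in XY ESC, and 0.782% ± 0.0751 in E12.5 XY EGC, against 1.36% ± 0.231 in E11.5 XY EGC, without overlap in either pair. In E11.5 EGC the Tubb2a shares overlapped, at 1.58% and 1.65% in XX, against 1.33%, 1.599% and 1.14% in XY. Tuba3b was at most 0.309% of tubulin TPM in any library.

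The share of Tuba4a was smallest in XX ESC, at 0.586% ± 0.0267, against 1.07% ± 0.024 in XY ESC. In E11.5 EGC its share was 0.887% ± 0.0578 in XX, against 1.04% ± 0.0583 in XY, so in EGC the level was higher in XX and the share lower. Tuba1a likewise took 5.96% ± 0.086 in E11.5 XX EGC, against 7.35% ± 0.0559 in E11.5 XY EGC. Tuba1b in the XO library had the largest share of any isotype in any library, 38.1%.

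**Figure D3:**
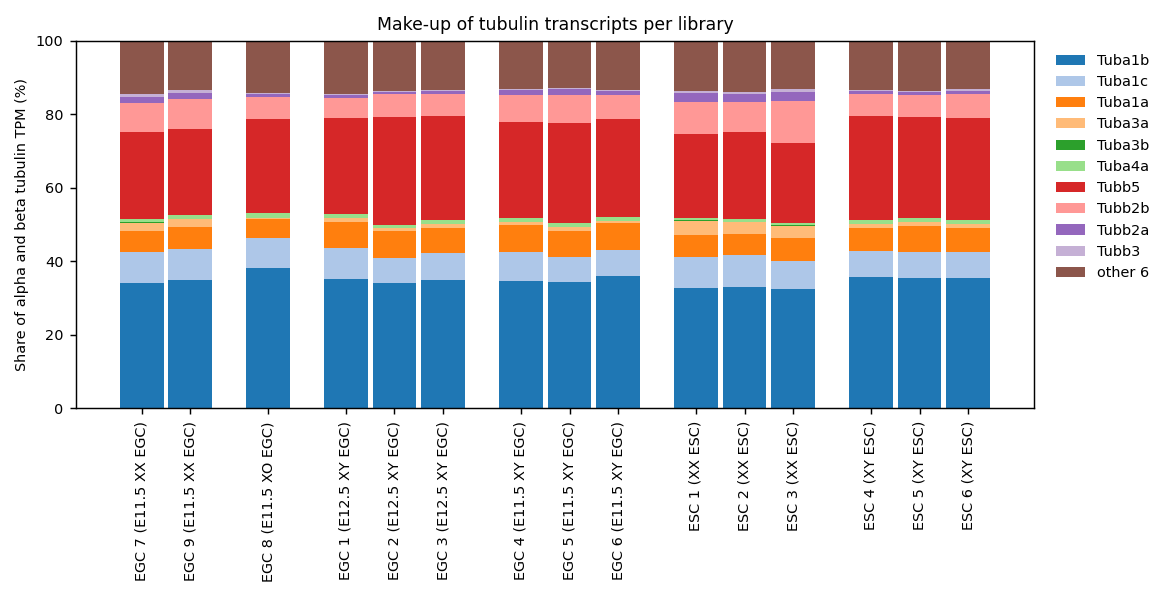
Share of summed alpha and beta tubulin TPM (vertical axis, percent) per library, stacked by isotype, with the 6 other tubulin genes in 1 block at the top. Tuba1b (32.5% to 38.1%) and Tubb5 (21.7% to 29.2%) fill most of each bar, and the Tuba3a, Tubb2a and Tubb2b blocks are thicker in the XX ESC bars than in the XY ESC bars.

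Across the 15 libraries the isotypes fell into like and unlike patterns, given here as a description over libraries that share labels. In log2(TPM + 1), Tuba1b and Tuba1c had a Pearson r of 0.977 and Tuba3a and Tuba3b one of 0.973. Tubb2b followed Tuba3b (0.955) and Tuba3a (0.948), whereas Tubb3 followed Tuba1b (0.964). Tuba4a was the exception, with r between -0.18 and 0.52 to the other 9. The Tuba1 copies share 97.2% to 98.3% of their coding bases, and the part of shared reads in their likeness was not tested.

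Predicted genes and bare identifiers among the 13879 genes were left out of the following ranking. Those most like Tuba3a in log2(TPM + 1) were Dnajb13 (r = 0.984), Efhd1 (0.983), Rhox13 (0.982), Mpp1 (0.981) and Serpina3m (0.981), over 15 libraries. Tuba3b ranked 11 on that list. Those most like Tuba3b were Ube2l6 (0.986), Mageb10-ps (0.983), Tifab (0.983), Gpr126 (0.982) and Tktl1 (0.982). Like Tuba3b, several of these were near 0 outside the XX labels. The highest label mean there was 0.173 TPM for Mageb10-ps, 0.105 TPM for Tifab, 0.170 TPM for Gpr126 and 0.381 TPM for Tktl1. Serpina3m, on the Tuba3a list, reached a label mean of 0.622 TPM there. Their r thus mainly restates XX against low levels. Rhox13, Mpp1, Mageb10-ps and Tktl1 lie on the X chromosome, and Tuba3a and Tuba3b on chromosome 6. Dnajb13, Efhd1, Serpina3m, Ube2l6, Tifab and Gpr126 lie on autosomes, and these include the gene ranked first on each list. Whether genes of the X chromosome are more frequent on these lists than among all genes was not tested. The level of Mpp1 averaged 71.4 TPM in XX ESC, against 24.7 TPM in XY ESC, and 53.8 TPM in E11.5 XX EGC, against 18.5 TPM in E11.5 XY EGC.

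The 6 other alpha and beta tubulins, and the pathway lists after them, are not among the isotypes and were tested in the same fit. They too were listed with earlier results known, so their p-values are not independent support. Of the 6, 3 passed the filter on low values. Tubb4b, a broadly expressed beta tubulin, was higher in XX ESC at 549.6, 532 and 585 TPM, against 342, 368 and 357 TPM in XY ESC (log2 difference 0.64 ± 0.11, adjusted p = 0.000403 by limma with Benjamini-Hochberg adjustment). In E11.5 EGC it had 583 and 499 TPM in XX, against 287, 246 and 278 TPM in XY (1.00 ± 0.12, limma adjusted p = 3.23e-05). Tubb4b was also higher in E12.5 than in E11.5 XY EGC (0.50 ± 0.11, limma adjusted p = 0.00387) and was lower in E11.5 XY EGC than in XY ESC (-0.40 ± 0.11, limma adjusted p = 0.0207). Its karyotype and stage calls held with each library left out in turn, and its call against XY ESC was lost without EGC 5, ESC 5 or ESC 6, at -0.33 to -0.39. Fam166a overlaps Tubb4b on the opposite strand.

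Tubb6, a beta tubulin of many non-neuronal cells, had 80.1 and 68.1 TPM in E11.5 XX EGC, against 52.5, 43.97 and 48.8 TPM in E11.5 XY EGC (0.60 ± 0.14, limma adjusted p = 0.00318). In ESC its levels overlapped, at 79.3, 73.6 and 60.8 TPM in XX and 64.04, 66.4 and 68.6 TPM in XY. The difference there was 0.09 ± 0.13, with a 95% confidence interval of -0.18 to 0.36. The difference between the cell types, 0.51 ± 0.19 for Tubb6, did not pass (limma adjusted p = 0.0817). Tubb6 was higher in E12.5 than in E11.5 XY EGC (0.77 ± 0.13, limma adjusted p = 0.000633). Tubb4a stayed between 0.724 and 1.53 TPM and passed in none of the 6 comparisons of labels. Tuba8, Tubal3 and Tubb1 did not reach 1 TPM in any library.

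The genes that nucleate, fold, modify and bind tubulin were taken as 5 further lists, which with the other tubulins hold 88 genes, all found in the table, of which 77 were tested. In XX against XY ESC 20 rose and 7 fell, beside 27.3% and 19.3% of all genes. In E11.5 EGC 33 rose and 15 fell in XX, beside 26.2% and 23.4%, and the total of 48 was 31 without EGC 9. The median difference over the 77 genes was 0.05 in ESC and 0.19 in EGC, beside 0.95 and 1.06 over the 10 isotypes, which were chosen.

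Among the 13 genes of gamma tubulin and its ring complex, which starts microtubules, 2 rose and 0 fell in XX ESC, and 3 rose and 4 fell in XX EGC. Tubgcp4, a ring subunit, had 32.1 ± 1.99 TPM in XX ESC, against 24.2 ± 1.15 TPM in XY ESC (SD, n = 3 each, log2 difference 0.40 ± 0.08, limma adjusted p = 0.000976). Mzt1, a small adaptor of the ring, had 85.6 ± 8.23 TPM in E11.5 XX EGC (n = 2), against 122.6 ± 11.7 TPM in XY (n = 3, -0.51 ± 0.11, limma adjusted p = 0.00243). Tube1, the centriolar epsilon tubulin, was also lower there (-0.41 ± 0.08, limma adjusted p = 0.000701).

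Of the 15 chaperonin and prefoldin subunits, which fold new tubulin, 3 rose and 2 fell in XX ESC, and 8 rose and 2 fell in XX EGC. Vbp1, a prefoldin subunit on the X chromosome, had 501 ± 20.3 TPM in XX ESC, against 267 ± 45.4 TPM in XY ESC (0.92 ± 0.11, limma adjusted p = 1.86e-05). Pfdn5, another subunit, fell in both cell types, by 0.41 ± 0.07 in ESC (limma adjusted p = 0.000478) and by 0.44 ± 0.08 in EGC (limma adjusted p = 0.000681). Cct8, a chaperonin subunit, rose by 0.57 ± 0.09 in EGC (limma adjusted p = 0.000138), with 680.8 ± 27.4 TPM in XX against 457 ± 17.7 TPM in XY.

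Of the 8 tubulin-specific chaperones and autoregulation genes, 2 rose and 1 fell in XX ESC, and 3 rose and 2 fell in XX EGC. Tbcd, which assembles the dimer, rose by 0.42 ± 0.09 in ESC (limma adjusted p = 0.00151) and by 0.43 ± 0.10 in EGC (limma adjusted p = 0.00294). Arl2, its small GTPase partner, fell in ESC, to 30.4 ± 1.07 TPM in XX against 48.4 ± 4.15 TPM in XY (-0.65 ± 0.08, limma adjusted p = 1.85e-05). Ttc5, which recognises nascent tubulin chains and starts the decay of their messages, had differences of -0.06 ± 0.06 in ESC and -0.05 ± 0.06 in EGC, which did not pass. Tbca, on chromosome 13, passed narrowly in ESC (0.28 ± 0.11, limma adjusted p = 0.0487). That call was lost under both scalings, with no filter and without most single libraries, and the difference was 0.11 without ESC 3.

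Of the 19 tested enzymes that modify tubulin tails, 6 rose and 3 fell in XX ESC, and 8 rose and 5 fell in XX EGC. Ttl, which restores the tyrosine at the alpha tubulin end, had 7.83 ± 0.615 TPM in XX ESC, against 3.83 ± 0.38 TPM in XY ESC (0.87 ± 0.09, limma adjusted p = 8.6e-06). Agbl5, a carboxypeptidase that trims glutamates from tubulin tails, was lower in XX in both cell types, at 13.9 ± 1.19 against 24.1 ± 0.943 TPM in ESC (-0.75 ± 0.08, limma adjusted p = 4.75e-06) and 13.6 ± 0.394 against 25.2 ± 1.42 TPM in EGC (-0.84 ± 0.09, limma adjusted p = 6.1e-06). Hdac6, a tubulin deacetylase on the X chromosome, had 148 ± 14.7 TPM in XX ESC, against 82.5 ± 3.3 TPM in XY ESC (0.83 ± 0.08, limma adjusted p = 4.41e-06). Ttll3, a glycylase, rose in both cell types, by 0.86 ± 0.14 in ESC (limma adjusted p = 0.000297) and by 1.17 ± 0.16 in EGC (limma adjusted p = 6.66e-05).

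Of the 19 tested microtubule-associated proteins and stathmins, 6 rose and 1 fell in XX ESC, and 9 rose and 2 fell in XX EGC. Mapt, the neuronal protein tau, had 35.9 ± 5.58 TPM in XX ESC, against 12.1 ± 1.79 TPM in XY ESC (1.49 ± 0.18, limma adjusted p = 2.52e-05), and 32.03 ± 0.797 TPM in E11.5 XX EGC, against 11.3 ± 3.08 TPM in E11.5 XY EGC (1.45 ± 0.21, limma adjusted p = 8.79e-05). Mtap6 (Map6), which stabilises neuronal microtubules, rose by 0.97 ± 0.09 in ESC (limma adjusted p = 2.04e-06) and 1.65 ± 0.10 in EGC (limma adjusted p = 1.04e-07). Mtap4 (Map4), the broadly expressed family member, had 128.7 ± 10.8 TPM in XX ESC, against 72.7 ± 1.63 TPM in XY ESC (0.81 ± 0.06, limma adjusted p = 5.01e-07). Stmn3, a neuronal destabiliser, fell in ESC, to 1.96 ± 0.772 TPM in XX against 4.22 ± 0.274 TPM in XY (-0.85 ± 0.17, limma adjusted p = 0.00129).

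The difference between cell types in the XX minus XY contrast, EGC less ESC, passed for 11 of the 77 genes, 7 higher and 4 lower, beside 6.08% and 9.51% of all genes. It was 0.68 ± 0.13 for Mtap6 (limma adjusted p = 0.00782), -0.42 ± 0.09 for Mtap7 (limma adjusted p = 0.0117) and -0.44 ± 0.10 for Mtap4 (limma adjusted p = 0.0117). The Mtap4 call was lost without EGC 7 (-0.39, limma adjusted p = 0.0673). For the isotypes this difference was not tested.

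**Figure D4:**
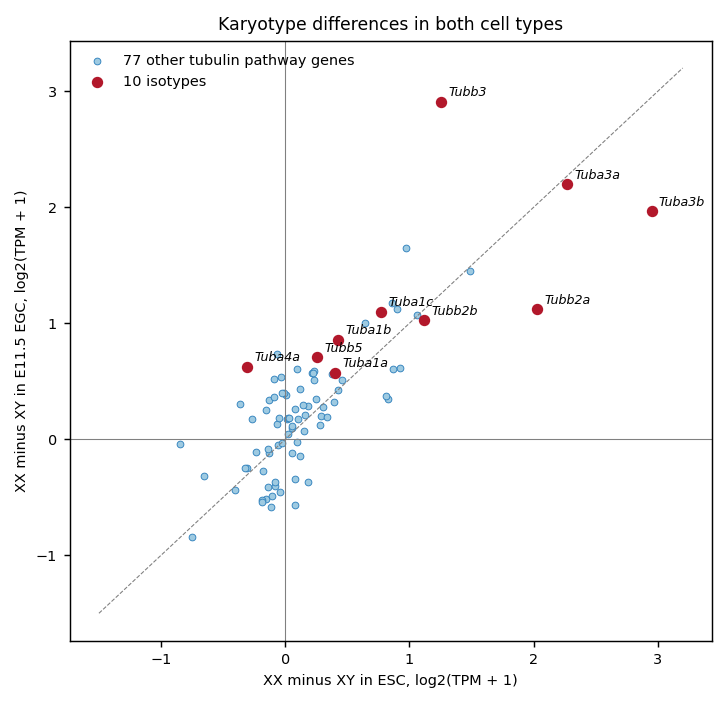
XX minus XY difference in log2(TPM + 1) in ESC (horizontal axis) and in E11.5 EGC (vertical axis) for the 10 isotypes and the 77 tested pathway genes, with 1 point per gene and a dashed line where both are equal. Tubb3 (1.26 and 2.91) lies above the line, Tubb2a (2.03 and 1.12) and Tuba3b (2.95 and 1.97) lie below it, and Tuba4a is the isotype left of 0 on the horizontal axis.

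In the other comparisons of labels, E12.5 against E11.5 XY EGC had 27 pathway genes higher and 9 lower of 77, beside 26.3% and 11.4% of all genes. Mtap6 had the smallest p, with 6.49 ± 0.467 TPM at E12.5, against 2.45 ± 0.317 TPM at E11.5 (1.12 ± 0.09, limma adjusted p = 6.23e-06). E11.5 XY EGC against XY ESC had 6 higher and 19 lower, beside 12.2% and 13.4%. That total of 25 was 11 without EGC 5, 15 without EGC 6 or ESC 4, and 14 without ESC 6. E11.5 XX EGC against XX ESC had 3 higher and 6 lower, a total that was 3 without EGC 7 and 4 without EGC 9, ESC 1 or ESC 2.

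E12.5 XY EGC against XY ESC had 2 pathway genes higher (Tubgcp2 and Agbl5) and 1 lower (Stmn2), beside 3.19% and 0.166% of all genes. With a library left out there were 0 calls (without EGC 1) to 6 (without EGC 3), and the calls of Tubgcp2 and Agbl5 were lost under both scalings (0.19 and 0.21). With all 9 EGC libraries against all 6 ESC libraries, limma called 0 of the 77, while 3 had an unadjusted p under 0.05, and it called 6 of 12909 genes in all, or 0.0465%.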

How the data were processed

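RNA-seq levels came from 1 deposited table of 34372 genes by 15 libraries. The authors deposited the values as TPM, and each column sums to 1000000. Per the submitters' processing notes, reads were handled on GRCm38 (mm10) with STAR 2.3.0, SAMtools 0.1.18.0, Picard 1.100, HTSeq 0.6.0 and edgeR 3.8.6. How TPM was computed from them, and the read depth, are not given in the sources used here, so no counting interval is given. Libraries were grouped by the header labels of the table, with a blank header cell read as the label to its left, and numbered in accession order as a name only.

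The 13879 genes that reached 1 TPM in 2 or more libraries were fitted as log2(TPM + 1) in limma 3.58.1 under R 4.3.3, with 1 mean per label, a mean-variance trend, 9 residual degrees of freedom, 2-sided tests and Benjamini-Hochberg adjustment. All EGC against all ESC used the 12909 genes that reached 1 TPM in 6 or more. The fit was checked on simulated data. Fold changes on this scale understate the change of genes near 1 TPM. Tables used Python 3.11.15 and pandas 2.3.3, promoter alignments Biopython 1.88, and figures matplotlib 3.10.9.

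Isotypes and gene lists were chosen with earlier results of these data known. Named besides the isotypes and the other tubulins were, per list and comparison, up to 3 genes past the threshold with the smallest p in each direction, of which the text describes a part, and the 5 genes most like Tuba3a and Tuba3b. Predicted genes and bare identifiers were left out before likeness was ranked. Of the 88 list genes, 10 were matched by an older symbol. Gene positions came from GENCODE M21 (GRCm38) and promoters from RefSeq (GRCm38.p6), which matched 9 of the 10 isotypes. Alternatives were another pseudocount (0.1), no filter, median-ratio or quantile scaling, each library left out, and other denominators for shares.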

Additional observations from a re-analysis of the deposited data

Results flagged for a closer look

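Among 44 groups of libraries and measures in which 1 library could be compared with the others, 1 stood apart: Tuba1b made up 38.1% of tubulin TPM in the XO library EGC 8, above the other EGC libraries. Chance marks about 1 group in 20 in this way.

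The XX minus XY difference itself differed between E11.5 EGC and ESC for 11 of 77 tested pathway genes, beside 15.6% of all genes tested. The count thus does not set the pathway genes apart. Values are EGC less ESC in log2 units, from limma with Benjamini-Hochberg adjustment. At an unadjusted p under 0.05 there were 30 of the 77. The XX minus XY difference was higher in EGC for Mtap6 (0.68), Vash2 (0.67), Cct3 (0.46), Tbcc (0.80), H2-Ke2 (0.41), Tubg1 (0.46) and Stmn3 (0.81). It was lower in EGC for Mtap7 (-0.42), Mtap4 (-0.44), Hdac6 (-0.48) and Clasp1 (-0.55). With each of the 15 libraries left out in turn, the calls of Mtap6 and Mtap7 held every time. Mtap4 was lost 1 time, Vash2 3, Cct3 4, Tbcc 5, Hdac6 6, Clasp1 7, H2-Ke2 8, and Tubg1 and Stmn3 12 times each, Stmn3 with an adjusted p of up to 0.22 without EGC 7.

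Tuba4a was higher in every XX library than in every XY library in E11.5 EGC, by 0.63 log2 units, and lower in every XX library in ESC, at -0.31. This difference between the cell types was not tested.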

How the results depend on the processing

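No result changed direction past the threshold under any alternative. Across scalings, the filter and the pseudocount, 27 of 31 counts over all genes and 21 of 24 over the pathway genes were within 1.5 times the reported count. For E12.5 XY EGC against XY ESC the 466 calls were 206 after median-ratio scaling, 114 after quantile scaling and 231 with no filter, and the 3 pathway calls were 1 under each of these. The 6 calls of EGC against ESC were 2 with no filter. With a library left out, calls over all genes ranged over 5429 to 6573 for XX against XY ESC, 4967 to 7222 for XX against XY EGC, 3862 to 5668 for E12.5 against E11.5, 2224 to 3930 for E11.5 XY EGC against XY ESC, 29 to 1013 for E12.5 XY EGC against XY ESC, 353 to 2324 for XX EGC against XX ESC, 698 to 2967 for karyotype by cell type and 2 to 21 for EGC against ESC. Pathway calls ranged over 22 to 27, 31 to 51, 27 to 39, 11 to 31, 0 to 6 and 3 to 13 in the first 6 of these. Fewer samples enter each such fit, and beyond that the cause was not tested. The share of calls that were higher was 69.8% for E12.5 against E11.5 XY EGC, but 47.4% and 50.4% after median-ratio and quantile scaling. It was 95.1%, but 64.1% and 70.2%, for E12.5 XY EGC against XY ESC, 32.6%, but 45.2% and 47.8%, for XX EGC against XX ESC, 58.5%, but 50.5% and 45.9%, for XX against XY ESC, 39.0%, but 45.7% and 50.5%, for karyotype by cell type, and 50%, but 37.5% under both, for EGC against ESC. Of 1140 isotype differences under alternatives, 11 moved by more than 1 SD. These were Tuba3b in 4 comparisons with 0.1 TPM added, Tuba1c in 2 without EGC 1 and Tubb5 in 5 under scaling. Many of the 1140 could not move, so this count says little about stability. In 900 of them a library was left out, which changes a difference only where that library's label is compared. Dropping the filter on low values changes no difference between label means. Of the named pathway tests, 32 of 476 were lost under another setting and 223 of 1785 with a library left out. Of 100 mean shares recomputed with another denominator, 92 moved by more than 1 SD. Both other denominators are smaller, which raises every share. No paired analysis was possible because the labels carry no shared replicate numbers. The read depth is unknown, and with it the counting error of Tuba3b in the XY and XO libraries, where it was under 1 TPM.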
